A study of Homo sapiens with 5 samples.

Results

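The comparison described here set HT1080 cells that received IL-6 and IL-8 together (RM) against HT1080 cells that received IL-6 alone (IL-6), which asks what changed in the transcriptome when IL-8 was present beside IL-6. HT1080 is a human fibrosarcoma line. It was seeded in type I collagen gels of 2 mg per ml at 10 cells per cubic millimetre and kept in the gel for 24 h. The 2 libraries were chosen by their labels out of 5 in the series: recombinant IL-6 was added to 1 and recombinant IL-6 with IL-8, at a ratio of 5 to 2, to the other. The other libraries were untreated cells at the same low density (LD), low-density cells with recombinant IL-8 (IL-8), and untreated cells at 50 cells per cubic millimetre (HD). The methods of the study describe RM as the cytokine levels of the high-density culture, and give the same basis for IL-6 alone in their PCR experiments. The amount added to the sequenced IL-6 culture is not stated there or in the labels. Each condition was sequenced as 1 library. No difference below has a replicate check, no p-value is given, and intervals cover the sampling of reads only. Reads had been amplified as a whole cDNA pool and are not independent molecules, so even these intervals are too narrow. Fewer cells with a given transcript and less of it per cell cannot be told apart in such bulk libraries.

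IL-6 is a cytokine that binds its receptor IL-6R and the shared signalling chain gp130 (IL6ST). Bound receptors activate the JAK kinases, which phosphorylate the transcription factor STAT3, and STAT3 in turn induces its own inhibitor SOCS3. IL-8 (CXCL8) is a chemokine that signals through the G-protein-coupled receptors CXCR1 and CXCR2. Both cytokines are known for promoting tumour cell migration, a process that needs branched actin made by the Arp2/3 complex and its WAVE activators.

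Promoters of 4 genes are shown because the results turn on them: SOCS3, the feedback inhibitor of IL-6 signalling, which was higher in RM. HTRA3, a secreted serine protease, was among the genes with the largest increase. CDC20 and AURKB are mitotic genes that were lower in RM. Each line holds the 250 bases before the RefSeq gene start (GRCh38.p14), 5′ to 3′ on the strand of the gene. SOCS3 is at chr17:78360926-78361175 on the minus strand, HTRA3 at chr4:8269504-8269753 on the plus strand, CDC20 at chr1:43358731-43358980 on the plus strand and AURKB at chr17:8210226-8210475 on the minus strand. Capitals mark the matches found on either strand to any of 4 motifs: the STAT motif TTCNNNGAA, the AP-1 motif TGANTCA, the CHR element TTTGAA of late cell-cycle genes and the TEAD motif GGAATG.
SOCS3: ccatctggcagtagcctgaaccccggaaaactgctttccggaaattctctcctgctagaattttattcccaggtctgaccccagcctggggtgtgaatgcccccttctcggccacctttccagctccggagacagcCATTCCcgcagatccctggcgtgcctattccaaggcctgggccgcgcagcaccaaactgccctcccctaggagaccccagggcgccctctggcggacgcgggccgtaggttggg
HTRA3: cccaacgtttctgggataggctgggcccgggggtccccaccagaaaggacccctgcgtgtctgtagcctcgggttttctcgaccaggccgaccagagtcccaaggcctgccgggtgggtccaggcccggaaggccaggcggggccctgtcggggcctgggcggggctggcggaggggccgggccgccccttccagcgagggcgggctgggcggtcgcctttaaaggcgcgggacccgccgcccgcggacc
CDC20: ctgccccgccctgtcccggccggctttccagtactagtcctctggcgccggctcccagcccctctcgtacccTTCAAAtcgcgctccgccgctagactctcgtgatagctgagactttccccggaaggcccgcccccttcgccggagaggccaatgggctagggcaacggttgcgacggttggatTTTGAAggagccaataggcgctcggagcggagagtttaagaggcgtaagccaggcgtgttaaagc
AURKB: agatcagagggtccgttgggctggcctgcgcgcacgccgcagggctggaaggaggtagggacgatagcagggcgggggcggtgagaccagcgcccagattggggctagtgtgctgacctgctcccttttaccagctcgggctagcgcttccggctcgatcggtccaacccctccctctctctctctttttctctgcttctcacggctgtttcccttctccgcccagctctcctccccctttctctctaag
In the SOCS3 window the capitals are a TEAD match at position -114 relative to the start, and no STAT match was found there. Sites outside these 250 bases, or before other transcript starts of a gene, were not searched. The CDC20 window holds a pair of CHR matches, at positions -178 and -65, and the windows of HTRA3 and AURKB hold no match to these letters. Of 27305 promoter windows of this length, 6.78% held the STAT motif, 6.6% the AP-1 motif, 13.6% the CHR element and 11.9% the TEAD motif.

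The RM library held 6838104 reads and the IL-6 library 5096134, of which the single ribosomal entry RNA5-8S5 took 79.0% and 78.4%. This left 1434366 reads in RM and 1100967 in IL-6 on all other genes, so that 3 reads correspond to 2.09 and 2.72 CPM (reads per 1000000 outside RNA5-8S5). Genes with at least 1 read numbered 13468 in RM and 15079 in IL-6. The 1000 most abundant genes made up 69.3% of these remaining reads in RM and 61.9% in IL-6. Mesenchymal markers were detected in both libraries: VIM, the intermediate filament protein vimentin, had 7318 reads in IL-6 and 5518 in RM, and the collagenase MMP2 had 440 and 405. Most markers of other lineages had few reads, such as PTPRC (leukocytes) with 1 in IL-6 and 0 in RM, CDH5 (endothelium) with 0 and 1, and EPCAM (epithelium) with 0 in both. The endothelial kinase TIE1 had 33 reads in IL-6 and 8 in RM, with 26 in LD and 225 in IL-8. The epithelial list summed to 1240 reads in IL-6 and 2074 in RM, mostly from the simple keratins KRT8 and KRT18. Its member KRT19 went the other way and was lower in RM.

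Among the 10292 genes with at least 10 reads over both libraries, 2055 (20.0%) were at least 2-fold higher in RM and 2001 (19.4%) at least 2-fold lower. Counts were scaled by the median ratio between the libraries, with a median log2 ratio of all genes at -0.01. For 1864 of the higher genes (18.1% of those tested) and 1554 of the lower genes (15.1%) the 95% counting interval of the ratio also lay on 1 side of 1. Among the 5613 genes with at least 50 reads, 1338 (23.8%) were higher and 573 (10.2%) lower. The balance depended on the scaling. When each library was scaled to its total reads outside RNA5-8S5, the median log2 ratio of all genes moved to -0.57, with 1180 genes higher and 3567 lower. Numbers of reads below are unscaled, and the 4 low-density libraries had joint size factors of 1.4 (LD), 1.01 (IL-6), 0.785 (IL-8) and 0.897 (RM). Directions are on the median-ratio scale, and gene lists are given with their median on the total-read scale as well. The counts of higher and lower members in every list on the median-ratio scale are to be read beside the 20.0% and 19.4% of all genes. Their counts on the total-read scale are to be read beside the 1180 higher and 3567 lower of all 10292 genes on that scale.

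**Figure D1:**
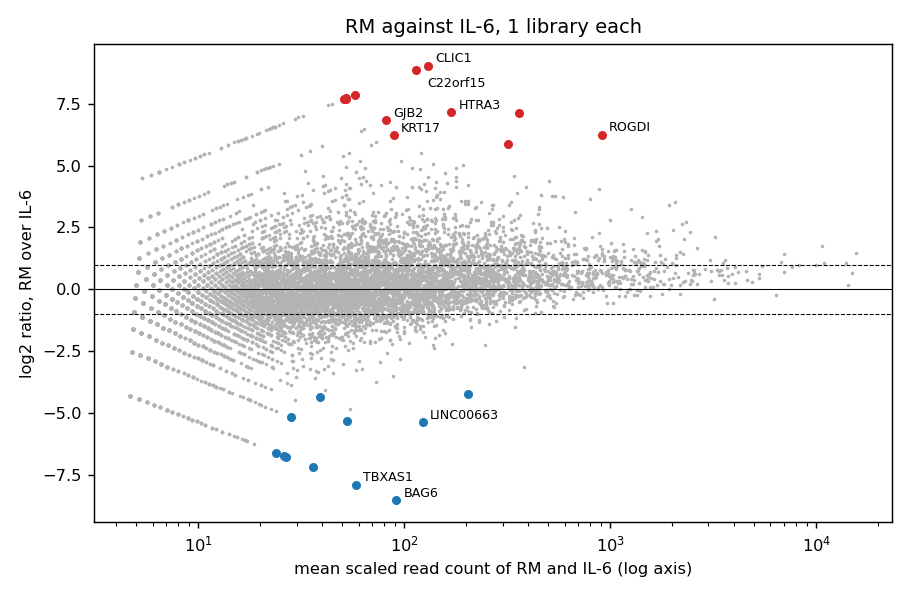
Each point is 1 of the 10292 genes, with its mean scaled read count in RM and IL-6 (log axis) against its log2 ratio of RM over IL-6; dashed lines mark 2-fold, red and blue points leading genes in each direction. The cloud rises to the right of the panel, where the most abundant genes lie above 0.

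The ratio moved with abundance. Genes were binned by their reads in LD plus IL-8, libraries outside the comparison. The median log2 ratio was 0.02 for the 833 genes with under 10 such reads and -0.25 for the 1113 with at least 10 and under 20. It was -0.32 for the 2229 genes with at least 20 and under 50, and -0.02 for the 1613 with at least 100 and under 200. For the 202 genes with at least 2000 it was 0.61. Of those 202 genes, 47 (23.3%) were at least 2-fold higher in RM and 0 lower. In the bin from 20 reads 16.8% were higher and 28.2% lower. The part of library composition in this trend was not tested. The median of each larger gene list is therefore also given with ratios centred within bins of abundance ("within abundance").

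**Figure D2:**
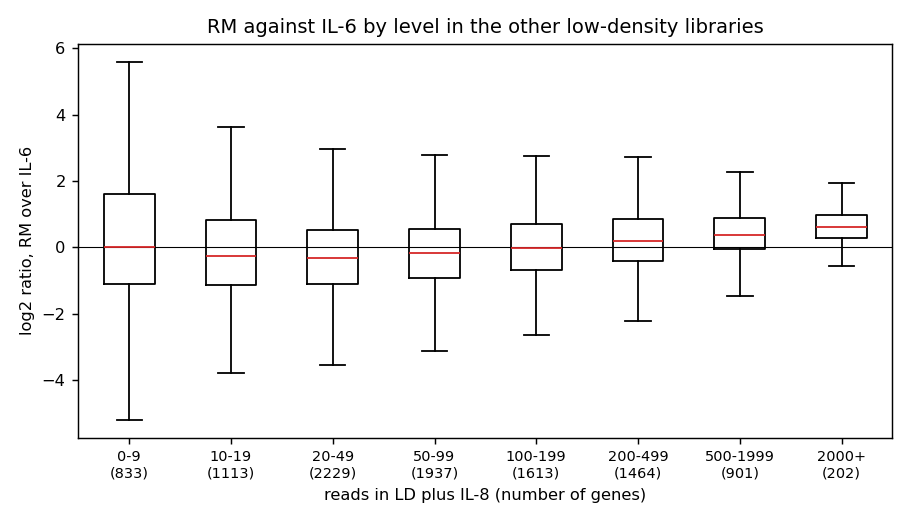
Boxes show the median (red) and quartiles of the log2 ratio of RM over IL-6, whiskers reach to 1.5 times the box, and genes are grouped by their reads in LD plus IL-8. The median falls from 0.02 under 10 reads to -0.32 in the bin from 20 reads, then climbs to 0.61 at 2000 reads or more, while the spread narrows.

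The share of genes that differed at least 2-fold was 39.4% between RM and IL-6, 41.3% between RM and LD and 43.4% between RM and IL-8. It was 37.4% between IL-8 and LD, 34.3% between IL-8 and IL-6 and 25.6% between IL-6 and LD, so the pairs with IL-8 alone came close to those with RM. Among genes with at least 500 reads the SD of the log2 ratio was 0.93 for RM over IL-6, 0.78 for IL-8 over LD, 0.8 for IL-8 over IL-6 and 0.46 for IL-6 over LD. These pairs share libraries and are given as a description. Among the 2055 higher genes, 1213 (59.0%) were also at least 2-fold higher in RM than in LD, with IL-6 within 2-fold of LD. For a further 310 (15.1%) IL-6 lay at least 2-fold below LD, with RM within 2-fold of it. Of the 2001 lower genes, RM alone lay away from LD in 1060 and IL-6 alone in 471 (23.5%). RM was the highest of the 4 low-density libraries for 85.6% of the higher genes and the lowest for 74.1% of the lower genes. IL-6 was the lowest for 47.6% of the higher genes and the highest for 55.7% of the lower genes. The choice of genes by this ratio fixes part of these shares.

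The genes that led the increase, ranked by the lower end of their counting interval, were in most cases close to undetected in the 3 other low-density libraries. HTRA3 had 314 reads in RM and 2 in IL-6, beside 6 in LD and 2 in IL-8, a ratio of 179 over IL-6 (95% counting interval 49.3 to 1490). GJB2, which encodes the gap junction protein connexin 26, had 151 reads in RM and 1 in IL-6, with 3 in LD and 0 in IL-8, a ratio of 173 (30.5 to 6860). KRT17, a keratin of stressed and basal epithelia, had 165 reads in RM and 2 in IL-6, with 2 in LD and 4 in IL-8 and a ratio of 94.3 (25.7 to 785). Each of these 3 genes was high in RM alone, with the other low-density libraries at 6 reads or fewer. ROGDI was more abundant, with 1675 reads in RM and 25 in IL-6, beside 26 in LD and 335 in IL-8, 76.6-fold higher than in IL-6 (51.7 to 119). It was high in both libraries that received IL-8 and low in both that did not.

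CLIC1, an intracellular chloride channel protein, had 244 reads in RM and 0 in IL-6, beside 179 in LD and 78 in IL-8, which is at least 93.0-fold higher in RM when IL-6 is set to the floor of 3 reads in that library. NDRG1, a gene induced by hypoxia and cell stress, had 95 reads in RM and 0 in IL-6, beside 195 in LD and 0 in IL-8, at least 36.2-fold higher. Here IL-6 was a library without reads, and RM lay within 2-fold of LD. ZBTB22, a zinc finger gene, had 97 reads in RM and 0 in the 3 others, at least 37.0-fold higher. C22orf15 showed the same pattern with 214 reads in RM and 0 in the others, at least 81.5-fold higher. FLJ37453, a noncoding transcript, had 669 reads in RM and 5 in IL-6, beside 1 in LD and 21 in IL-8, a ratio of 153 (65.2 to 472).

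The remaining leading genes share their position with another gene, and the counting is not stated to use strand. AGAP2, a GTPase-activating protein of ARF proteins, had 11 reads in IL-6 and 585 in RM, a ratio of 60.8 (33.7 to 122), and overlaps the antisense transcript AGAP2-AS1, which had 171 and 480. Summed, the pair had 182 reads in IL-6 and 1065 in RM, a log2 ratio of 2.74. FAM189A1 had 0 and 108 reads and overlaps the end of APBA2, which had 22 and 21. C1orf213 had 0 and 98 reads and overlaps ZNF436, which had 1 and 0. The reads in these 3 pairs cannot be assigned to 1 strand.

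The genes that led the decrease were present in IL-6 and had 0 to 5 reads in RM, apart from FAM122B with 19. BAG6, a chaperone of membrane protein precursors, had 0 reads in RM and 196 in IL-6, beside 430 in LD and 508 in IL-8, at least 57.2-fold lower than in IL-6. RM was the 1 low-density library without a read. CRIP1, a small LIM-domain protein, had 0 reads in RM and 51 in IL-6, with 22 in LD and 146 in IL-8, at least 14.9-fold lower. ABCC10, a drug efflux transporter, had 2 reads in RM and 111 in IL-6, with 38 in LD and 74 in IL-8, 48.6-fold lower (13.1 to 406). ATG4D, an autophagy protease, had 3 reads in RM and 80 in IL-6, with 56 in LD and 176 in IL-8, 23.3-fold lower (7.7 to 116). FAM122B had 19 reads in RM and 415 in IL-6, with 61 in LD and 326 in IL-8, 19.1-fold lower (12.1 to 32.1), but summed with the overlapping FAM122C the log2 ratio was -0.87. OSBPL5 and ATXN1L had 57 and 56 reads in IL-6 and 0 in RM, at least 16.6-fold and 16.3-fold lower. ORAOV1 had 59 reads in IL-6 and 1 in RM, 51.6-fold lower (8.91 to 2070).

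In a second set the IL-6 library was the one that differed from the others. TBXAS1, thromboxane synthase, had 0 reads in RM and 125 in IL-6, beside 1 in LD and 0 in IL-8. The noncoding RNA LINC00663 had 5 reads in RM and 257 in IL-6, with 3 in LD and 0 in IL-8. In both genes the reads were concentrated in IL-6. EIF3CL had 77 reads in IL-6 and 0 in RM, but it is a near-identical copy of EIF3C, which had 780 and 761 reads, and the log2 ratio of their sum was 0.02. Overlaps were also found for ATG4D with KRI1, which had 215 reads in IL-6 and 154 in RM, for ABCC10 with DLK2 (9 and 0 reads), for FAM122B with FAM122C (350 and 346), for BAG6 with APOM (0 and 0) and for C22orf15 with CHCHD10 (0 and 0). Summed with KRI1, ATG4D had a log2 ratio of -0.72. BAG6, CLIC1 and ZBTB22 lie in the major histocompatibility region of chromosome 6, which genome assemblies carry in alternate copies. Among its 25 genes with at least 50 reads, 2 had 0 reads in IL-6 and 1 had 0 in RM, against 11 and 6 among all 5613 genes of that depth. The zeros of the region are those of CLIC1, ZBTB22 and BAG6. The region was looked at because of these genes, so the comparison was fixed by that choice and adds nothing to them. Whether reads were split between copies was not tested.

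**Figure D3:**
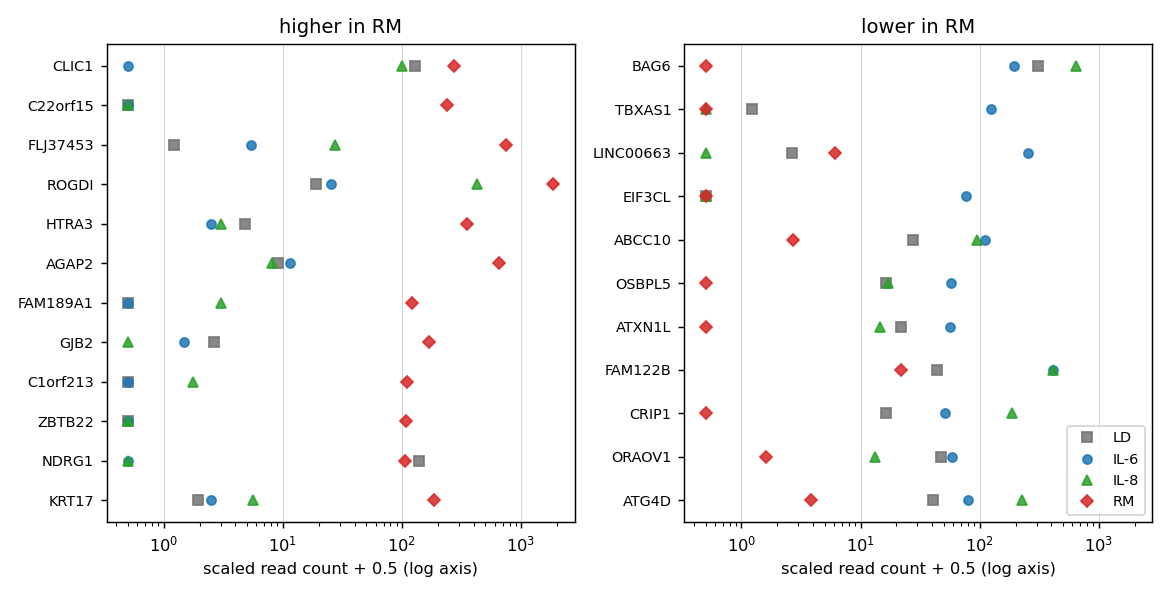
Scaled read counts plus 0.5 (log axis) of leading genes in each direction in the 4 low-density libraries, 1 point per library. Red diamonds (RM) lie alone at the right for most genes on the left panel, and at the left edge for BAG6, CRIP1, OSBPL5 and ATXN1L on the right panel.

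Of the 23 tested IL-6 family receptors, JAKs and STATs, 5 (21.7%) were at least 2-fold higher in RM than in IL-6 and 3 (13.0%) lower, near the 20.0% and 19.4% of all genes. On the total-read scale 4 were higher and 9 lower. The feedback inhibitor SOCS3 had 79 reads in RM and 19 in IL-6, beside 23 in LD and 7 in IL-8, a ratio of 4.75 over IL-6 (2.85 to 8.31). RM was the highest of the 4 libraries and IL-8 alone the lowest. PIAS3, an inhibitor of STAT3, had 96 reads in RM and 23 in IL-6, with 81 in LD and 29 in IL-8 and a ratio of 4.77 (3.0 to 7.88). OSMR, the receptor chain of the related cytokine oncostatin M, had 51 reads in RM and 17 in IL-6, with 64 in LD and 12 in IL-8 and a ratio of 3.43 (1.95 to 6.33). STAT3 itself had 203 reads in RM and 114 in IL-6, with 331 in LD and 57 in IL-8 and a ratio of 2.04 (1.61 to 2.58). For PIAS3, OSMR and STAT3 the scaled values of RM lay within 2-fold of LD, and those of IL-6 and IL-8 alone were the lowest. The deposited TPM, a level per transcript length, gave STAT3 a log2 ratio of -0.37, the other direction.

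IL6ST, the signalling chain, had 57 reads in IL-6 and 48 in RM, a log2 ratio of -0.05, and IL6R had 5 and 8. JAK1 had 91 and 159 reads, a log2 ratio of 0.99, just under the 2-fold limit, and JAK2 had 5 and 0. IL6 had 3 reads in IL-6 and 0 in RM. The list had a median log2 ratio of 0.1, which was 0.0 within abundance and -0.46 on the total-read scale. Of the STAT3 target genes 4 of 17 were higher and 3 lower (median 0.18, -0.01 within abundance, -0.37 on the total-read scale with 2 higher and 6 lower). Among them BIRC5, an apoptosis inhibitor and mitotic protein, had 86 reads in IL-6 and 282 in RM, and CCND1, the G1 cyclin, had 9682 and 17613 (log2 ratio 1.06). CEBPD, an acute-phase transcription factor, went the other way with 50 reads in IL-6 and 1 in RM, LD and IL-8 each. The STAT motif was found in 2 of 15 STAT3 target promoters, those of BCL6 and ICAM1. BCL6 had 27 reads in IL-6 and 52 in RM, ICAM1 had 5 and 1.

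The IL-8 receptors were at the limit of detection: CXCR1 had 0 reads in all low-density libraries, and CXCR2 had 4 in RM, 3 in IL-8 and 0 in both LD and IL-6. IL8 was listed at 0 in the 4 libraries. Of the 22 tested genes of the IL-8 receptor and G-protein list, 3 were higher and 3 lower (median -0.16, -0.34 within abundance, -0.73 on the total-read scale with 1 higher and 8 lower). The higher ones included AKT2, a survival kinase, with 324 reads in IL-6 and 1235 in RM, a ratio of 4.36 (3.85 to 4.94). RAC1, a GTPase of cell protrusion, had 1388 and 2531 reads, a ratio of 2.08 (1.95 to 2.23), and ARRB2, an arrestin of chemokine receptors, 25 and 47. GNAI1, a G-protein subunit, had 38 reads in IL-6 and 16 in RM. NF-kB genes were split, with 2 of 13 higher and 3 lower (median -0.17, -0.48 within abundance, -0.74 on the total-read scale with 2 higher and 5 lower). The inhibitor NFKBIA had 150 reads in RM and 50 in IL-6, beside 173 in LD and 27 in IL-8, a ratio of 3.43 (2.47 to 4.82), with RM within 2-fold of LD. TRAF2, an adaptor of TNF receptors, had 7 reads in RM and 60 in IL-6, with 4 in LD and 16 in IL-8, 7.5-fold lower in RM (3.42 to 19.5), with IL-6 as the high library. Of AP-1 and immediate early genes 4 of 25 were higher and 5 lower (median -0.3, -0.35 within abundance, -0.87 on the total-read scale with 2 higher and 10 lower). DUSP4, a MAP kinase phosphatase, had 66 reads in IL-6 and 170 in RM, and PHLDA1 had 519 and 202.

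Of 56 tested actin, myosin and adhesion genes, 10 (17.9%) were at least 2-fold higher in RM and 1 (1.79%) lower, beside 20.0% and 19.4% of all genes and 20.6% and 2.44% of the genes with at least 500 and under 2000 reads in LD plus IL-8, where this abundant list has its median. On the total-read scale 2 were higher and 5 lower. Their median log2 ratio was 0.41, which became -0.16 on the total-read scale and 0.07 when centred within abundance. MYL6, a myosin light chain, had 2474 reads in RM and 738 in IL-6, beside 1516 in LD and 1582 in IL-8, a ratio of 3.83 (3.53 to 4.17). CNN2, the actin-binding protein calponin, had 2478 reads in RM and 848 in IL-6, with 1854 in LD and 913 in IL-8 and a ratio of 3.34 (3.09 to 3.61). CNN3 had 34 reads in IL-6 and 88 in RM, and CORO1C, a regulator of actin turnover, 278 and 644. Beta-actin ACTB had 4484 and 6004 reads, a log2 ratio of 0.61, within 2-fold.

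The WAVE and Arp2/3 genes differed in both directions. Of 22 tested, 5 were higher and 3 lower (median -0.28, -0.36 within abundance, -0.84 on the total-read scale with 2 higher and 7 lower). Among Arp2/3 subunits, ARPC1A had 858 reads in RM and 253 in IL-6, beside 538 in LD and 503 in IL-8, a ratio of 3.88 (3.36 to 4.48). ARPC5 had 72 reads in IL-6 and 132 in RM, a log2 ratio of 1.06, and ARPC3 had 57 and 21, 2.38-fold lower (1.42 to 4.12). The actin-related subunits ACTR2 and ACTR3 lay within 2-fold at log2 ratios of -0.35 and -0.4. In the WAVE complex, the small subunit BRK1 had 19 reads in RM and 95 in IL-6, with 116 in LD and 81 in IL-8, 4.38-fold lower in RM (2.65 to 7.58). WASF3 had 15 reads in RM and 2 in IL-6, with 21 in LD and 4 in IL-8, a ratio of 8.57 over IL-6 (1.99 to 77.2) that rests on 2 reads in IL-6, and RM lay within 2-fold of LD. WASL, an Arp2/3 activator outside the WAVE complex, had 50 reads in IL-6 and 97 in RM.

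At the cell surface and in the matrix, matrix proteases and inhibitors had 4 of 20 genes higher and 1 lower (median 0.07, -0.09 within abundance, -0.5 on the total-read scale with 2 higher and 3 lower). PLAT, the tissue plasminogen activator, had 46 reads in RM and 4 in IL-6, beside 12 in LD and 1 in IL-8, a ratio of 13.1 (4.8 to 50.3). CTSZ, a lysosomal cathepsin, had 92 reads in RM and 11 in IL-6, with 93 in LD and 10 in IL-8, a ratio of 9.56 (5.1 to 19.8) with RM within 2-fold of LD. MMP14, the membrane-bound collagenase activator, had 694 reads in IL-6 and 410 in RM, a log2 ratio of -0.57. Integrin subunits had 1 of 12 higher (ITGA10, 36 and 116 reads) and 1 lower (median 0.08, -0.14 within abundance, -0.5 on the total-read scale with 1 higher and 3 lower). Extracellular matrix genes had 4 of 45 higher and 7 lower (median 0.04, -0.09 within abundance, -0.54 on the total-read scale with 2 higher and 13 lower), among them the laminin LAMA4 with 21 and 61 reads and the collagen-modifying enzyme PLOD2 with 43 and 13. Intermediate filament and lamin genes had 2 of 13 higher, KRT17 and KRT80, and 1 lower, KRT19 (median 0.31, 0.16 within abundance, -0.26 on the total-read scale with 1 higher and 2 lower). The simple keratins KRT8 and KRT18 had log2 ratios of 0.97 and 0.94.

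TGF-beta genes had 7 of 30 higher and 6 lower (median -0.14, -0.16 within abundance, -0.69 on the total-read scale with 4 higher and 12 lower). SMAD1, a signal transducer of BMP receptors, had 153 reads in RM and 13 in IL-6, beside 29 in LD and 2 in IL-8, a ratio of 13.5 (7.64 to 25.8). SMAD7, the inhibitory SMAD, had 91 reads in IL-6 and 34 in RM. YAP and TEAD pathway genes had 1 of 22 higher and 5 lower (median -0.16, -0.11 within abundance, -0.72 on the total-read scale with 1 higher and 9 lower), with the coactivator WWTR1 at 97 and 40 reads and the matricellular target CTGF at 42 and 16. Growth factors and receptor kinases had 2 of 23 higher and 5 lower, although their median was 0.19 (-0.13 within abundance, -0.38 on the total-read scale). ERBB2 had 34 reads in IL-6 and 79 in RM, and IGF1R had 107 and 43.

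Cytosolic ribosomal proteins had 10 of 79 genes (12.7%) higher and 0 lower (1 and 6 on the total-read scale). Genes with at least 500 and under 2000 reads in LD plus IL-8, where this list has its median, had 20.6% higher and 2.44% lower. The list had a median log2 ratio of 0.29, which became -0.28 on the total-read scale and -0.13 within abundance. Its summed reads were 86682 in IL-6 and 133256 in RM. RPS28 had 15375 reads in RM and 5157 in IL-6, beside 9469 in LD and 11397 in IL-8, and RPL8 had 21436 reads in RM and 8929 in IL-6, with 12753 in LD and 11420 in IL-8. Translation factors had 8 of 57 higher and 4 lower (median 0.3, 0.04 within abundance, -0.26 on the total-read scale with 3 higher and 14 lower). EIF4A3, an RNA helicase of the exon junction complex, had 319 reads in RM and 15 in IL-6, with 61 in LD and 78 in IL-8, a ratio of 24.3 (14.5 to 43.9).

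Nuclear oxidative phosphorylation genes had 18 of 72 higher and 4 (5.56%) lower. Their median of 0.33 remained positive within abundance at 0.24 and became -0.23 on the total-read scale, where 8 were higher and 12 lower. The complex I subunit NDUFB8 had 292 reads in RM and 43 in IL-6, beside 74 in LD and 109 in IL-8, a ratio of 7.76 (5.62 to 11). NDUFS8 and NDUFA2, also of complex I, had ratios of 4.15 and 4.16. SDHB was among the lower genes, with 55 reads in IL-6 and 19 in RM, a log2 ratio of -1.32. Mitochondrial ribosomal proteins spread widely around a median of 0.01 (0.18 within abundance, -0.55 on the total-read scale), with 17 of 75 higher and 9 lower, and 10 higher and 21 lower on the total-read scale. MRPL43 had 908 reads in RM and 76 in IL-6, with 314 in LD and 142 in IL-8, a ratio of 13.7 (10.8 to 17.5), and MRPS25 had 233 reads in RM and 36 in IL-6, with 64 in LD and 20 in IL-8. Proteasome subunits had 7 of 44 higher and 6 lower (median 0.32, 0.1 within abundance, -0.26 on the total-read scale with 5 higher and 10 lower). The catalytic subunit PSMB5 had 161 reads in IL-6 and 556 in RM, whereas PSMA1 had 53 and 12. Glycolysis genes had 3 of 24 higher and 4 lower (median 0.25, 0.01 within abundance, -0.33 on the total-read scale with 1 higher and 5 lower), among them the glucose transporter SLC2A1 with 61 and 148 reads and the phosphofructokinase PFKP with 184 and 80.

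Of 56 mitosis and spindle genes 13 (23.2%) were lower in RM and 4 (7.14%) higher, beside 19.4% and 20.0% of all genes and 22.7% and 16.5% of the genes with at least 50 and under 100 reads in LD plus IL-8. Their median of -0.44 was -0.44 within abundance and -1.0 on the total-read scale. AURKB, the kinase of chromosome alignment and cytokinesis, had 6 reads in RM and 73 in IL-6, beside 131 in LD and 182 in IL-8, 10.6-fold lower than in IL-6 (4.66 to 30.0). CDC20, the activator of the anaphase-promoting complex, had 78 reads in RM and 195 in IL-6, with 261 in LD and 221 in IL-8 (log2 ratio -1.12), and CDC25B, a phosphatase of mitotic entry, had 15 reads in RM and 97 in IL-6, with 83 in LD and 50 in IL-8, 5.66-fold lower (3.27 to 10.5). In these 3 genes RM was the lowest of the 4 libraries. The list was not uniform: CCNF had 71 reads in IL-6 and 266 in RM, BIRC5 was higher as given above, and MKI67 and PLK1 had log2 ratios of 0.01 and -0.03. The CHR element was found in 28 of 52 mitosis promoters (53.8%, against 13.6% of all), with CDC20 among them and AURKB not.

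DNA replication and G1/S genes had 13 of 46 (28.3%) higher and 6 (13.0%) lower, beside 20.0% and 19.4% of all genes. In genes with at least 50 and under 100 reads in LD plus IL-8, where this list has its median, 16.5% were higher and 22.7% lower. The list median was 0.07 (0.1 within abundance, -0.49 on the total-read scale, where 5 were higher and 16 lower). ORC1 was among the lower genes, with 15 reads in IL-6 and 4 in RM (95% counting interval of the ratio 0.0736 to 0.957). The helicase subunit MCM3 had 216 reads in RM and 63 in IL-6, beside 64 in LD and 42 in IL-8, a ratio of 3.92 (2.95 to 5.27), and thymidine kinase TK1 had 274 reads in RM and 96 in IL-6, with 114 in LD and 41 in IL-8, a ratio of 3.26 (2.58 to 4.16). Replication-dependent histones, whose mRNAs mostly lack a poly(A) tail, had 4 of 12 higher and 1 lower (median 0.55, 0.39 within abundance, -0.02 on the total-read scale with 2 higher and 2 lower). HIST1H4C had 81 reads in IL-6 and 210 in RM, and HIST1H1E 40 and 11. Cell-cycle arrest and damage response genes had 5 of 22 higher and 4 lower (median -0.05, -0.21 within abundance, -0.62 on the total-read scale with 2 higher and 8 lower). Among them the proapoptotic BAX had 278 reads in IL-6 and 626 in RM, a ratio of 2.57 (2.23 to 2.97).

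**Figure D4:**
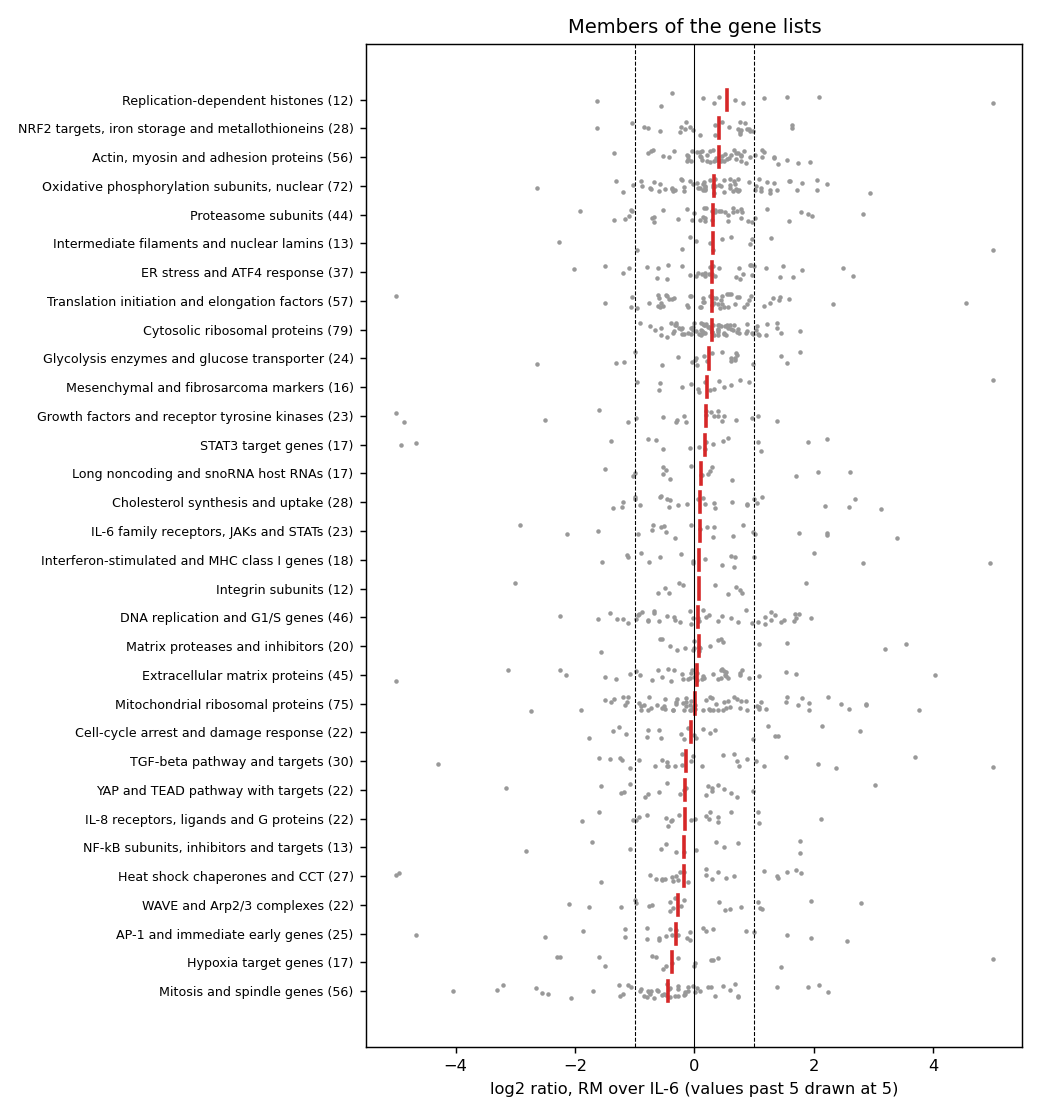
Log2 ratio of RM over IL-6 (median-ratio scale) for each tested member of the lists with at least 12 tested genes, 1 gray point per gene, with the list median in red and the number of genes in brackets. Mitosis and spindle genes lie lowest on this scale, at -0.44 (within abundance NF-kB genes lie lower, at -0.48); most medians lie within 0.5 of 0, and on the total-read scale 23 of the 25 medians above 0 among all 37 lists fall below 0.

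ER stress and ATF4 genes had 8 of 37 higher and 4 lower (median 0.3, 0.1 within abundance, -0.27 on the total-read scale with 4 higher and 7 lower), with the transcription factor ATF5 at 123 reads in IL-6 and 685 in RM, a ratio of 6.36 (5.25 to 7.78), and the stress protein NUPR1 at 164 and 35. Heat shock chaperones had 6 of 27 higher and 3 lower (median -0.18, -0.39 within abundance, -0.75 on the total-read scale with 2 higher and 8 lower), and their regulator HSF1 had 107 and 325 reads. NRF2 targets, iron storage genes and metallothioneins had 2 of 28 higher and 2 lower (median 0.41, 0.23 within abundance, -0.16 on the total-read scale with 2 higher and 5 lower). The metallothionein MT1E had 394 reads in IL-6 and 1077 in RM, and SRXN1, which repairs peroxiredoxins, 136 and 38. Hypoxia target genes had 2 of 17 higher, NDRG1 and SLC2A1, and 4 lower (median -0.38, -0.05 within abundance, -0.93 on the total-read scale with 1 higher and 8 lower), among them the repressor BHLHE40 with 192 and 55. Cholesterol synthesis genes had 6 of 28 higher and 4 lower (median 0.1, -0.01 within abundance, -0.47 on the total-read scale with 4 higher and 9 lower). The kinase MVK had 80 reads in RM and 10 in IL-6, beside 75 in LD and 25 in IL-8, and FDFT1, the squalene synthase, had 380 and 95. Interferon-stimulated and MHC class I genes had 4 of 18 higher and 3 lower (median 0.08, 0.21 within abundance, -0.46 on the total-read scale with 3 higher and 6 lower), with B2M at 216 and 304 reads.

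Long noncoding and snoRNA host RNAs had 3 of 17 higher and 3 lower (median 0.11, -0.17 within abundance, -0.47 on the total-read scale with 3 higher and 6 lower), with SNHG3 at 17 reads in IL-6 and 93 in RM. Of the microRNA and small nucleolar RNA genes 9 could be tested, 2 higher and 4 lower (median -0.88, -0.68 within abundance, -1.42 on the total-read scale with 0 higher and 5 lower). MicroRNAs and small nucleolar RNAs are poorly captured by oligo-dT priming, but the tested genes also include the host transcripts MIR22HG and MIRLET7BHG. Mesenchymal markers had 1 of 16 higher and 0 lower (median 0.22, -0.05 within abundance, -0.33 on the total-read scale with 1 higher and 3 lower). Markers of other cell types were mostly under 10 reads: 2 leukocyte markers could be tested (CD68, 283 and 356 reads, and CSF1R, 23 and 44), 1 endothelial marker (TIE1, 3.61-fold lower in RM, 1.63 to 9.04) and 3 epithelial markers, of which KRT8 and KRT18 are also expressed by HT1080 cells in LD. Of the 3 epithelial markers 0 were higher and 1, KRT19, was lower. Of the olfactory receptor genes 2 passed the read limit, with 0 higher and 0 lower.

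IL-8 was also added to cells without IL-6, and the ratio of IL-8 over LD shares no library with RM over IL-6. Across the 7972 genes with at least 50 reads over the 4 libraries, the log2 ratios of both contrasts were nearly unrelated, with Pearson's r = 0.0129 and Spearman's rho = 0.0545. Genes are not independent replicates, and these coefficients are a description. Of the 1519 genes at least 2-fold higher when IL-8 was present with IL-6, 304 (20.0%) were also higher with IL-8 alone, and 280 (18.4%) were lower. Over all 7972 genes IL-8 alone was higher for 16.6% and lower for 15.3%. Of the 1410 genes lower with IL-6 present, 286 (20.3%) were also lower with IL-8 alone and 279 (19.8%) were higher. At this read limit same and opposite directions were thus about as frequent. In the 1027 genes with at least 1000 reads r was 0.125 and rho 0.17. There 20 of 122 higher genes (16.4%) were also higher with IL-8 alone and 8 (6.56%) were lower. Over all 1027 genes IL-8 alone was higher for 7.98% and lower for 3.51%. Of the 56 lower genes 2 (3.57%) were also lower with IL-8 alone and 7 (12.5%) were higher. ROGDI was high in both settings, as given above. SOCS3 was 4.75-fold higher with IL-6 present, and without it had 23 reads in LD and 7 in IL-8. AURKB went from 73 reads to 6 with IL-6 present, and had 131 reads in LD and 182 in IL-8, whereas the mitosis list as a whole had medians of the same sign, -0.44 with IL-6 present and -0.36 without it.

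**Figure D5:**
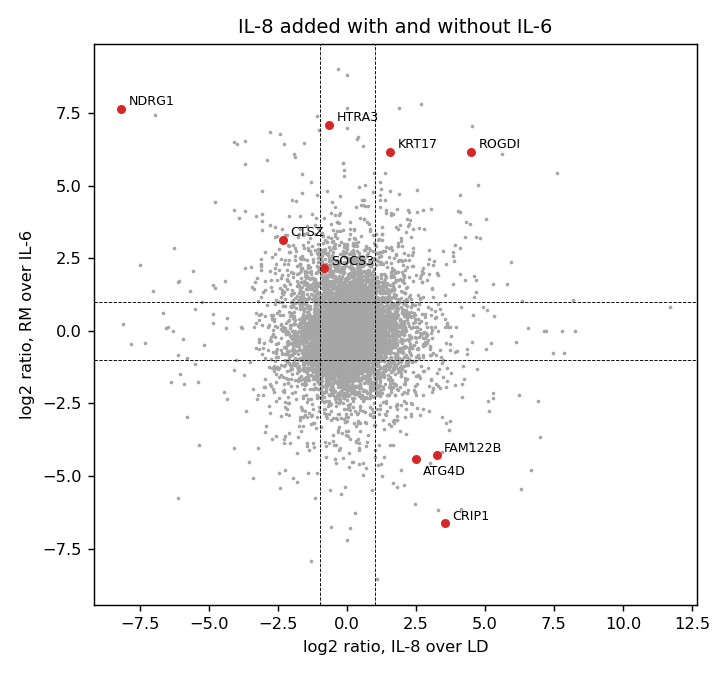
Each of 7972 genes is placed by its log2 ratio of IL-8 over LD (x) and of RM over IL-6 (y), with dashed lines at 2-fold and selected genes in red. The cloud has no slope (r = 0.0129), ROGDI lies at the upper right, and NDRG1 and CRIP1 lie in opposite corners.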

How the data were processed

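Total RNA from HT1080 cells in collagen was primed with oligo-dT, the cDNA pool was amplified with phi29 polymerase, and Nextera XT libraries were sequenced with 50 bp single-end reads in a single run of 5 libraries. According to the submitters' processing notes, the authors aligned the reads with Bowtie2 2.3.1 and quantified genes with RSEM 1.2.25. For each of 27189 genes they deposited 2 values, the read count as a whole number and TPM (level per transcript length, relative to the library). The notes name the GRCh37 build, so no gene coordinates are given. Only promoter windows, overlaps and the bounds of the chromosome 6 region were taken from RefSeq on GRCh38.p14.

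RNA5-8S5 was removed, genes with at least 10 reads over RM and IL-6 were kept, and counts were divided by median-ratio size factors (0.935 for RM, 1.07 for IL-6). The log2 ratio used a pseudocount of 0.5, and at least 2-fold was called a difference. With 1 library per condition no test was possible. Ratios carry exact 95% counting intervals (Clopper-Pearson). Genes with 0 reads in 1 library are given as bounds against a floor of 3 reads. The medians of all 37 lists were the same with such genes at their bound.

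The comparison, its members and the gene lists were chosen with earlier results of these data known. Genes named are the 12 in each direction with at least 50 reads and the most extreme near end of the interval, a fixed set of IL-6, IL-8, WAVE and Arp2/3 genes, and up to 4 members per list with the largest ratio. The rule names 162 genes, of which the text describes a selection made with their values known, and a few are not reported here. Further list members, overlapping genes and markers were named after their values were seen. Alternatives were TMM (edgeR 4.0.16, R 4.3.3), total reads, 4-library median ratio, no filter, at least 100 reads, 4-fold, pseudocounts of 0.1 and 2, deposited TPM (pseudocount 1), and centring within 20 bins of abundance, the last added after seeing the data. Scripts ran in Python 3.11.15 with numpy 2.4.6, pandas 2.3.3 and scipy 1.17.1, and were tested on simulated data.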

Additional observations from a re-analysis of the deposited data

Results flagged for a closer look

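In 5 named genes RM over IL-6 and IL-8 over LD had log2 ratios of at least 2 in opposite directions. Named genes were in part chosen for an extreme ratio of RM over IL-6. At the lower limit of 2-fold, opposite directions were common among the 7972 genes with at least 50 reads over the 4 libraries. There 280 genes were higher then lower and 279 lower then higher, beside 304 higher and 286 lower in both. Each direction rests on 1 library against 1, and the difference between the contrasts was not tested. NDRG1 had a log2 ratio of 7.67 with IL-6 present and -8.18 without it, values that depend on the pseudocount because IL-6 and IL-8 had 0 reads, and 195 reads in LD and 95 in RM. CTSZ, the cathepsin, had 3.2 and -2.32, with LD and RM both high (93 and 92 reads). CRIP1 had -6.59 and 3.55, with 0 reads in RM and 146 in IL-8, and the first value depends on the pseudocount (the bound is at least 14.9-fold lower in RM). FAM122B had -4.22 and 3.26, with LD and RM both low (61 and 19 reads). Summed with the overlapping FAM122C, its log2 ratio of RM over IL-6 was -0.87. ATG4D had -4.34 and 2.5. It overlaps KRI1, which had 215 reads in IL-6 and 154 in RM, and the sum of both genes had a log2 ratio of -0.72.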

How the results depend on the processing

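No paired analysis was possible because each condition is 1 library, and for the same reason no replicate could be left out. The counts of 2055 higher and 2001 lower genes became 1180 and 3567 with total-read scaling, 1040 and 3661 with the deposited TPM, 3259 and 4957 without a filter (16015 genes), 724 and 479 with at least 100 reads (3855 genes), and 777 and 694 at 4-fold. Of these calls 50.7% were higher ones, and 24.9%, 22.1%, 39.7%, 60.2% and 52.8% under these settings. Counts of genes whose interval was clear of 1 became 1032 and 3105 with total-read scaling, 724 and 479 with at least 100 reads, and 777 and 694 at 4-fold. TMM gave 1992 and 2067, the 4-library median ratio 2022 and 2029, pseudocount 2 1939 and 1807, pseudocount 0.1 2090 and 2080, and centring within abundance 2077 and 1798. Of 942 values of named genes under the alternatives, 218 moved beyond the counting interval of the gene, 101 with the deposited TPM, 84 with total-read scaling and 33 with centring within abundance. Of 294 list medians 9 moved. STAT3, at -0.37 with the deposited TPM, was the 1 value counted as a reversal, and the cause was not tested. That count does not cover every change of sign. Total-read scaling moved the median log2 ratio of all genes from -0.01 to -0.57, so ratios slightly above 0 fell below it. Of 37 lists, 25 had a median above 0 and 23 of these fell below 0 with total-read scaling, a median shift of -0.56. Genes near 10 reads are limited by counting, and no alternative replaces a second library.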
